A study of Mus musculus with 4 samples.

Results

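The genes of 3 signalling systems that steer migrating interneurons were followed in neurons made from mouse embryonic stem (ES) cells with and without induced St18. They are the chemokine genes Cxcr4, Ackr3 and Cxcl12, the neuregulin genes Erbb4, Nrg1, Nrg2 and Nrg3, and the genes Gdnf, Gfra1 and Ret of the glial cell line-derived neurotrophic factor (GDNF) system. These 10 genes were taken by symbol, as ligands and receptors of tangential migration, from the 34968 gene symbols that every library lists, by a rule that used no measured value. All 10 were listed in each of the 4 libraries, and 9 of them, all but Gdnf, were among the 12975 genes tested, which had a value of 1 TPM or more in at least 2 libraries. TPM, the deposited unit of transcript abundance, is scaled to transcript length and to the library total, so levels of different genes can be set side by side.

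Both ES cell lines came from a C57/BL6 parental line carrying Dlx6-Cre (also written Dlx6a-Cre by the study) and the Ai9 reporter, in which Cre turns on tdTomato in subpallial neuronal lineages. To this were added Nkx2-1 with a tetracycline transactivator under Nestin control and a transactivator-responsive cassette that holds Dlx2 in the N/D line and Dlx2 with V5-tagged St18 in the N/D/S line, and drug-resistant colonies were expanded as clones. Both lines were cultured for 12 days as embryoid bodies with XAV-939, a Wnt inhibitor, and SAG, a Sonic hedgehog agonist, and tdTomato+ neurons were sorted for poly-A RNA sequencing. Each line gave 2 libraries, numbered replicate 1 and replicate 2, and the labels do not say whether these were separate differentiations, so the spread between them may be technical.

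In the embryonic brain, the chemokine CXCL12 is released by the meninges and by cortical progenitors, and interneurons leaving the medial ganglionic eminence sense it with CXCR4, which couples to inhibitory G proteins, and with ACKR3, which takes up CXCL12 and signals through arrestins. Neuregulins are EGF-like ligands, made in the striatum, along the route and in the cortex, that act on the tyrosine kinase ErbB4 of migrating interneurons. GDNF binds GFRα1, a receptor anchored in the outer layer of the cell membrane that partners with the tyrosine kinase RET in many neurons. GFRα1 can act without RET in interneurons of the medial ganglionic eminence.

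The library labelled N/D replicate 1 stood apart. Among 11051 genes that reached 1 TPM everywhere else, it listed 21.9% at 0, against 0.043% to 0.329% when each of the other libraries was examined in the same way. In replicate order, St18 was at 28.5 and 26.6 TPM for N/D and at 44.4 and 15.9 TPM for N/D/S, and the shared transgene products Nkx2-1 and Dlx2 ranged from 16.5 to 48.6 and from 71.1 to 259 TPM. St18 thus did not separate the lines and every direction below rests on the labels. All 9 neuron markers and all 12 GABAergic ventral forebrain markers examined were above 0 in every library, and their summed levels ranged from 3398 to 5155 TPM and from 602 to 1489 TPM. The 8 glial markers summed to 0.0807 and 8.52 TPM in replicate 1 (N/D, then N/D/S) and to 117 and 58.8 TPM in replicate 2, and the 6 pluripotency markers to 0.253 and 3.96 TPM against 185 and 293 TPM. Summed levels ranged from 513 to 1242 TPM for 10 neural progenitor markers, from 13.5 to 38.8 TPM for 8 mesenchymal and endothelial markers, from 0.00979 to 2.99 TPM for 5 microglial markers, from 44.3 to 196 TPM for 5 Cajal-Retzius markers and from 94.1 to 555 TPM for 8 motor and autonomic neuron markers. Among the Cajal-Retzius markers, Trp73 was at most 0.0129 TPM and Reln at most 5.11 TPM, and Calb2, Lhx1 and Lhx5 made up the rest. Among the motor and autonomic neuron markers, Th was at 62.1 TPM or more and Isl1 at 1.26 to 151.5 TPM. The others on that list were at most 8.30 TPM in any library. Depth is unknown, as TPM does not retain the number of reads, and in sorted bulk RNA fewer cells of a type and less RNA per cell cannot be told apart.

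None of the 10 genes separated the lines. Across all tested genes, 0% were higher and 0% lower in N/D/S when limma p-values, adjusted by the Benjamini-Hochberg method, had to fall under 0.05, and 0.0617% had an unadjusted p under 0.05, so 0 of the 9 tested members passing either threshold is what the whole table showed. With 2 libraries a line, a p above the threshold does not show that the lines were alike. Both N/D/S libraries lay above both N/D libraries in 8.69% of all tested genes and below them in 8.23%, and in 0 of the 9 members in either direction. The residual standard deviation between libraries of a line lay at the 52.2 to 99.0 percentile of all tested genes for the 9 members, near the middle for Nrg1 (52.4) and Nrg2 (52.2) and highest for Ret (93.3) and Gfra1 (99.0).

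**Figure D1:**
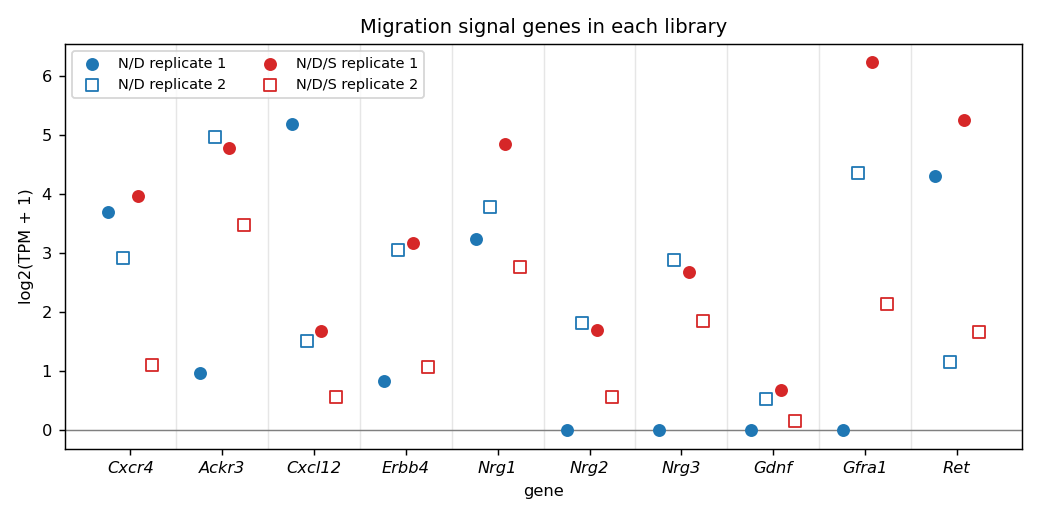
Level of each of the 10 genes, as log2(TPM + 1), in the 2 N/D libraries (blue) and the 2 N/D/S libraries (red), with filled circles for replicate 1 and open squares for replicate 2. Red and blue points interleave for every gene, Nrg2, Nrg3, Gdnf and Gfra1 are listed at 0 in N/D replicate 1, and Ret is high in both replicate 1 libraries.

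The start regions of the genes on which the results turn are given first. Windows of 250 bases before the transcription start, from RefSeq on GRCm38.p6 and written 5′ to 3′ on the strand of the gene, matched 7 of the 10 genes by symbol. RefSeq and GENCODE starts differ for some genes, and the Gfra1 window and 1 of the Gdnf windows lie inside the GENCODE span of the gene, downstream of its outermost start. Capitals mark matches on either strand to AAGTTT, the core of Myt family sites to which St18 belongs, to CAAGTG, a core bound by Nkx2-1, or to TAATTA, a core of Dlx homeodomain sites. The windows of the chemokine receptors Cxcr4 (chr1:128592300-128592549, minus strand) and Ackr3 (chr1:90203730-90203979, plus strand), of their ligand Cxcl12 (chr6:117168285-117168534, plus strand) and of Gfra1 (chr19:58455399-58455648, minus strand), the member with the widest spread between libraries, were:
Cxcr4: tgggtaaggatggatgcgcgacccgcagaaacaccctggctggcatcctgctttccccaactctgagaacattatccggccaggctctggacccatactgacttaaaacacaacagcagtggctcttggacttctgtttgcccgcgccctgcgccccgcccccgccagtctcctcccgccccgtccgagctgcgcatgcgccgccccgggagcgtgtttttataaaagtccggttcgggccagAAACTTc
Ackr3: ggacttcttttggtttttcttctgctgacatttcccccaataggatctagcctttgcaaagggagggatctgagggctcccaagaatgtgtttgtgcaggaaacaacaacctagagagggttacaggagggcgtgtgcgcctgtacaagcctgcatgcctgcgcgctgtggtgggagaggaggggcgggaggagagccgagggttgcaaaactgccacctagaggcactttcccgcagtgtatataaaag
Cxcl12: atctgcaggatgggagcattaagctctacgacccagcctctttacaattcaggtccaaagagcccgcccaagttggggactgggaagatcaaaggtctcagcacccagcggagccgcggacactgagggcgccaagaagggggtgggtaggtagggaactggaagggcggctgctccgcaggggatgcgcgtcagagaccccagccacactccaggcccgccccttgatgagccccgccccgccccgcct
Gfra1: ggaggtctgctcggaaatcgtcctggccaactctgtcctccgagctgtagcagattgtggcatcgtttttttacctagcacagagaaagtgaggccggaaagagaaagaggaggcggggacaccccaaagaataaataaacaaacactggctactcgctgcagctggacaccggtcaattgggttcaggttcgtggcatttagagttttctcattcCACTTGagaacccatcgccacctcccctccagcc
AAGTTT was found once in the Cxcr4 window and in no other window of a member, and 12.8% of the 32851 windows in the whole table hold it. CAAGTG was found once in the Gfra1 window and once in each of the 2 windows of Gdnf, against 11.6% of all windows. TAATTA was found in none of the members' windows, against 4.84% of all windows, and none of the motifs was found in the windows of Erbb4 and Nrg3. These are letter matches and no binding was measured. GC content was 61.2% for Cxcr4, 64.4% for Cxcl12, 54.0% for Ackr3 and 52.4% for Gfra1, beside a median of 52.4% over all windows.

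Cxcr4, the signalling receptor for CXCL12, spans positions 128588199 to 128592293 of chromosome 1 (GRCm38, as for all genes here; minus strand), with 2 annotated transcripts. Cxcr4 had 12.0 TPM in N/D replicate 1, 6.56 TPM in N/D replicate 2, 14.7 TPM in N/D/S replicate 1 and 1.16 TPM in N/D/S replicate 2. The N/D/S libraries thus held both the highest and the lowest value, which differed 12.7-fold, and the N/D values lay between them. The fitted log2 fold change (N/D/S minus N/D throughout) was −0.77 (standard error 1.24, limma, adjusted p = 1), less than the residual standard deviation between libraries of a line, 1.48. Without N/D/S replicate 2 the log2 fold change was 0.67, the opposite direction.

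Ackr3, the scavenging receptor that sets how much CXCL12 a migrating cell meets, lies on the plus strand of chromosome 1 from 90203980 to 90216751. Ackr3 had 0.952 TPM in N/D replicate 1 and 30.4 TPM in N/D replicate 2, and 26.7 and 10.2 TPM in N/D/S replicates 1 and 2. Of these, 3 libraries were within 2.97-fold of each other, and N/D replicate 1 was far below them. The log2 fold change was 1.17 (standard error 1.48, limma, adjusted p = 1). With quantile normalization it was 0.19, without N/D replicate 1 it was −0.83, since both N/D/S libraries were below N/D replicate 2, and without N/D replicate 2 it was 3.18 (limma, adjusted p = 0.035), a call made against the single library N/D replicate 1. In that setting 2213 genes were called higher and 160 lower among the 12975, the median over tested genes was 0.88, and 3 of the 9 members were called, Ackr3, Cxcl12 and Gfra1. Limma gave all 9 members the same standard error there, 1.15, whatever the distance between the N/D/S libraries of each gene. With N/D/S replicate 1 left out instead, the standard error differed by gene, at 1.55 for Cxcr4 and 2.16 for Ackr3.

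Cxcl12, the ligand of both receptors, lies on the plus strand of chromosome 6 from 117168535 to 117181367. Cxcl12 had 35.6 TPM in N/D replicate 1, 1.87 TPM in N/D replicate 2, 2.21 TPM in N/D/S replicate 1 and 0.487 TPM in N/D/S replicate 2. Cxcl12 was thus low wherever it was measured except in N/D replicate 1, where it was 16.1-fold above the next library. In the same library 6 other members, Ackr3, Erbb4, Nrg2, Nrg3, Gdnf and Gfra1, were at their lowest. On the log2(TPM + 1) scale the excess of N/D replicate 1 over the highest other library was 3.51, and 17 of the 12975 tested genes had a larger one, while 21.2% of tested genes were highest in that library. The fitted log2 fold change was −2.23 (standard error 1.40, limma, adjusted p = 1), the lowest p among the members. It was −0.39 without N/D replicate 1 and was −4.06 without N/D replicate 2 (limma, adjusted p = 0.00512).

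Markers of endothelial and mesenchymal cells were set beside Cxcl12, in libraries made from cells sorted for tdTomato, the label of the Dlx6a lineage. The purity of the sort is not given in the sources used here. In N/D replicate 1, 4 of the 8 markers were listed at 0, Col1a1 had 0.04 TPM and Col1a2 0.01 TPM, and Pecam1, an adhesion molecule of endothelium, had 38.8 TPM against 2.41 to 8.06 TPM in the other libraries. Cdh5, the cadherin that defines endothelial junctions, was listed at 0 in N/D replicate 1 and had at most 0.01 TPM in any library, and Kdr, the endothelial VEGF receptor, had 0.01 TPM in N/D replicate 1. The part of such cells in the Cxcl12 value was not tested.

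Since scaling moves every gene of a library together, the receptors were also compared within each library. The level of Cxcr4 was 0.216 times that of Ackr3 in N/D replicate 2, 0.55 times in N/D/S replicate 1 and 0.113 times in N/D/S replicate 2. In N/D replicate 1 the order was turned, and Cxcr4 had 12.6 times the level of Ackr3. Cxcr4 exceeded Cxcl12 3.51-fold in N/D replicate 2, 6.65-fold in N/D/S replicate 1 and 2.38-fold in N/D/S replicate 2, and was 0.337 times its level in N/D replicate 1. The neurons of 3 libraries thus held more receptor than ligand transcript and more Ackr3 than Cxcr4, in both lines. The log2 difference of Cxcr4 over Ackr3 had means of −1.60 for N/D/S and 0.34 for N/D, a change of −1.94, and the change was 0.46 without N/D replicate 1. In the 6 pairs of genes compared within libraries, the 2-sided exact permutation p was 0.667 or 1 (adjusted p = 1 in each), and 0.33 is the smallest that 2 libraries against 2 can give, so that test cannot reach 0.05.

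**Figure D2:**
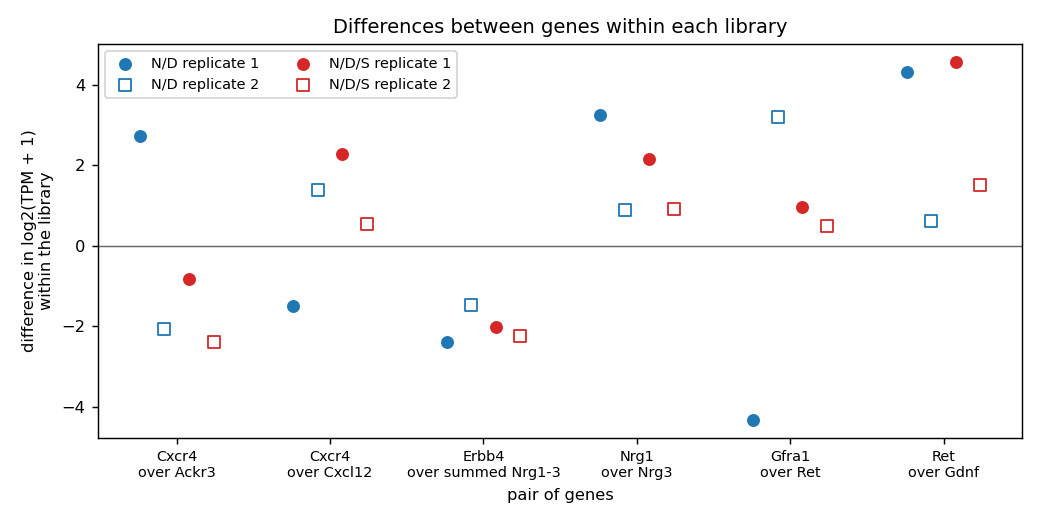
Difference in log2(TPM + 1) between the genes of each of 6 pairs within 1 library, in the 2 N/D (blue) and 2 N/D/S (red) libraries, with filled circles for replicate 1 and open squares for replicate 2. Points above 0 mean more of the gene named on top, and N/D replicate 1 lies on the other side of 0 from the remaining libraries for Cxcr4 over Ackr3, Cxcr4 over Cxcl12 and Gfra1 over Ret.

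Erbb4, the neuregulin receptor of migrating interneurons, lies on the minus strand of chromosome 1 from 68032186 to 69108059, a locus of 1076 kb that holds an annotated pseudogene and an intronic RNA on the same strand. Erbb4 had 0.797 and 7.3 TPM in N/D replicates 1 and 2 and 8.07 and 1.11 TPM in N/D/S replicates 1 and 2. Each line thus had a library with more than 7 TPM and a library with about 1 TPM. The log2 fold change was 0.18 (standard error 1.25, limma, adjusted p = 1), against a residual standard deviation of 1.52. It was −0.92 when N/D replicate 1 was dropped and −0.87 when N/D/S replicate 1 was, so its direction depended on which library was kept, and with quantile normalization it was −0.81.

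Nrg1, whose many isoforms include secreted and membrane-held attractants, lies on the minus strand of chromosome 8 from 31814551 to 32884029 and has 18 annotated transcripts. In replicate order, Nrg1 was at 8.44 and 12.8 TPM for N/D and at 28.0 and 5.81 TPM for N/D/S. It was the highest of the 3 neuregulins in all 4 libraries. Here too the N/D/S libraries held the highest and the lowest value, 4.81-fold apart. Its log2 fold change of 0.30 had a standard error of 1.11, and was −0.74 without N/D/S replicate 1. The deposited values do not tell its isoforms apart.

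Nrg2, a related ligand that is also made in the forebrain, lies on the minus strand of chromosome 18 from 36017652 to 36197380. Nrg2 was listed at 0 in N/D replicate 1 and had 2.53 TPM in N/D replicate 2, 2.27 TPM in N/D/S replicate 1 and 0.482 TPM in N/D/S replicate 2. Nrg3, the ligand known to attract interneurons into the cortical plate, lies on the minus strand of chromosome 14 from 38368952 to 39473088. Nrg3 was listed at 0 in N/D replicate 1 and had 6.44 TPM in N/D replicate 2, 5.45 TPM in N/D/S replicate 1 and 2.63 TPM in N/D/S replicate 2. For both ligands the N/D/S libraries lay between the N/D libraries or, without N/D replicate 1, below N/D replicate 2. The log2 fold changes were 0.23 for Nrg2 and 0.83 for Nrg3 (standard errors 1.11 and 1.25), and without N/D replicate 1 they were −0.68 and −0.62, and limma gave an adjusted p of 1 each time. As both are listed at 0 in that library, the pseudocount sets part of the fold change, and a pseudocount of 0.1 gave 1.195 and 2.27. Antisense genes are annotated across Nrg2 and Nrg3, and whether reads were assigned by strand is not given in the sources used here.

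Summed over the 3 ligands, neuregulin transcripts came to 8.44 and 21.7 TPM for N/D and to 35.7 and 8.93 TPM for N/D/S, in replicate order. The share of Nrg1 in the sum was 58.7% for N/D replicate 2, while N/D/S replicates 1 and 2 had 78.4% and 65.1%, and it was 100% for N/D replicate 1, where the other ligands were listed at 0. Nrg3 followed at 29.6%, 15.3% and 29.5% in those 3 libraries in which it was above 0, and Nrg2 at 11.6%, 6.35% and 5.40%. The order Nrg1, Nrg3, Nrg2 thus held in each library with all 3 ligands, in both lines. Erbb4 was below the summed ligands in all 4 libraries, at 0.0944 and 0.336 times their level in N/D and 0.226 and 0.125 times in N/D/S. On the log2(TPM + 1) scale this was a difference of −1.92 in N/D and −2.12 in N/D/S, a change of −0.20 with standard deviations of 0.66 and 0.15 (n = 2 each).

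**Figure D3:**
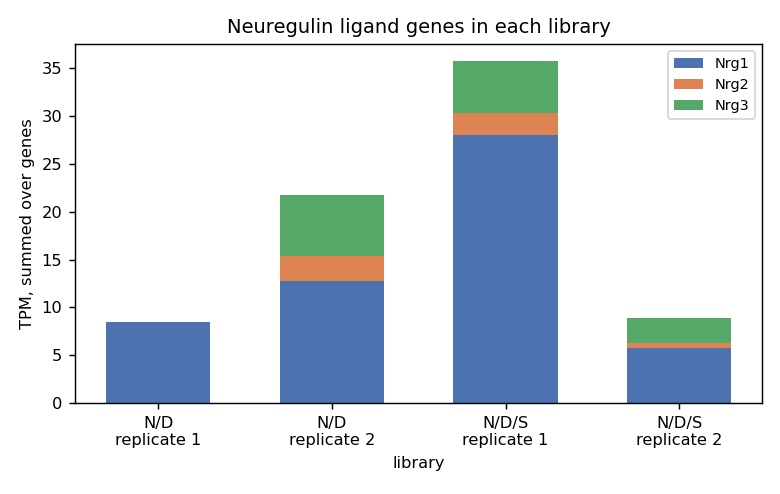
TPM of Nrg1, Nrg2 and Nrg3, stacked, in each of the 4 libraries, with no error bars since each bar is 1 library. Nrg1 is the largest part of every bar, and the N/D/S libraries hold both the tallest bar (35.7 TPM) and one of the shortest (8.93 TPM).

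Gdnf, which encodes the ligand GDNF, a chemoattractant for interneurons in culture, lies on the plus strand of chromosome 15 from 7810846 to 7837575. Gdnf was at most 0.614 TPM in any library: it was listed at 0 in N/D replicate 1 and had 0.446 TPM in N/D replicate 2, 0.614 TPM in N/D/S replicate 1 and 0.113 TPM in N/D/S replicate 2. Gdnf therefore did not enter the test, and how far depth limits its detection is unknown.

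Gfra1, the GDNF-binding receptor, lies on the minus strand of chromosome 19 from 58235604 to 58455909, has 9 annotated transcripts and overlaps an antisense gene. Gfra1 had 74.5 TPM in N/D/S replicate 1, 19.5 TPM in N/D replicate 2 and 3.43 TPM in N/D/S replicate 2, with a listing at 0 for N/D replicate 1. It was the highest of the 10 genes in N/D/S replicate 1, and the N/D/S libraries differed 21.7-fold. Its residual standard deviation, 2.99 on the log2(TPM + 1) scale, was higher than that of 99.0% of tested genes, whose median was 1.03. The log2 fold change of 2.01 (standard error 1.86, limma, adjusted p = 1) is taken against a library listed at 0, so the pseudocount sets part of it, and a pseudocount of 0.1 gave 3.53. Dropping either replicate 1 library turned it, to −0.17 for N/D and −0.03 for N/D/S, and dropping N/D replicate 2 gave 4.19, with the common standard error of 1.15 in place of a spread of its own (limma, adjusted p = 0.0038).

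Ret, the tyrosine kinase of the GDNF family receptors, lies on the minus strand of chromosome 6 from 118151745 to 118197718. Ret had 37.3 TPM in N/D/S replicate 1 and 18.9 TPM in N/D replicate 1, against 2.17 TPM in N/D/S replicate 2 and 1.23 TPM in N/D replicate 2. The library labelled N/D/S was the higher of the replicate 1 libraries, by 1.97-fold, and of the replicate 2 libraries, by 1.76-fold, and Ret was the one tested member for which this was so. The fitted log2 fold change was 0.73 (standard error 1.59, limma, adjusted p = 1). Dropping the first or the second N/D library gave 2.31 or −0.85, and dropping the first or the second N/D/S library gave −1.07 or 2.52.

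By replicate number, a division noted after the values were seen and described here without a test, both replicate 1 libraries were above both replicate 2 libraries in Ret, Cxcr4 and Cxcl12. These were 3 of the 9 tested members, against 14.8% of all tested genes, and 0 members were lower in both replicate 1 libraries, against 14.7%. The lowest replicate 1 value of Ret was 8.73 times the highest replicate 2 value. In that direction, 18 of the 12975 tested genes had a wider gap on the log2(TPM + 1) scale. Gaps in the other direction were not counted. For Cxcr4 the same ratio was 1.83. Of the marker lists, 6 of 6 tested glial and 4 of 4 tested pluripotency markers were lower in both replicate 1 libraries, as were 2 of 4 mesenchymal and endothelial and 1 of 2 microglial markers. Higher in both replicate 1 libraries were 4 of 10 neural progenitor markers (1 lower), 3 of 9 neuron markers (0 lower), 2 of 12 GABAergic markers (0 lower) and 2 of 4 Cajal-Retzius markers (1 lower). Of the 4 tested motor and autonomic neuron markers, Th, the enzyme that starts catecholamine synthesis, was higher, at 204 and 396 TPM against 72.9 and 62.1 TPM, and Slc18a3, the vesicular acetylcholine transporter, was lower, at 0 and 0.752 TPM against 5.53 and 8.30 TPM (N/D, then N/D/S). The libraries were made from cells sorted for tdTomato, the label of the Dlx6a lineage. The part of any cells outside that lineage in the Ret values was not tested.

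Gfra1 and Ret did not keep one proportion. Gfra1 had 15.9 times the level of Ret in N/D replicate 2, 1.99 times in N/D/S replicate 1 and 1.58 times in N/D/S replicate 2, but stood at 0 beside 18.9 TPM of Ret in N/D replicate 1. In log2(TPM + 1), Gfra1 over Ret was 0.98 and 0.48 in the N/D/S libraries, with a standard deviation of 0.35, and −4.32 and 3.20 in the N/D libraries, with a standard deviation of 5.32 (n = 2 each). The N/D/S libraries thus fell between the N/D libraries. Ret exceeded Gdnf in all 4 libraries.

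**Figure D4:**
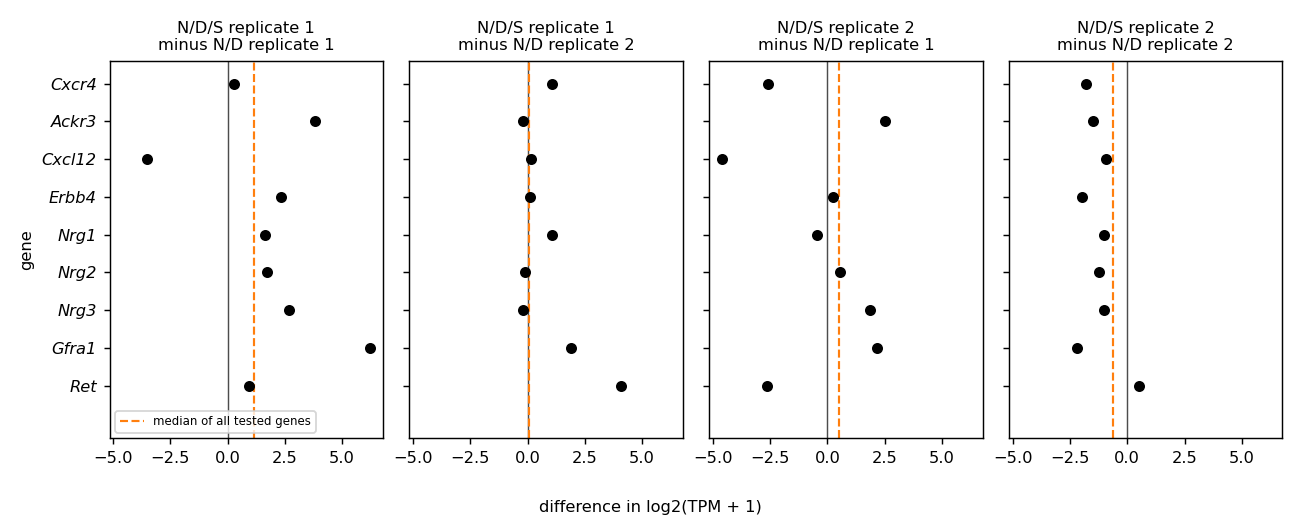
Difference in log2(TPM + 1) of the 9 tested genes for each of the 4 pairs that join a library of one line to a library of the other (N/D/S minus N/D), with the median of all 12975 tested genes as a dashed orange line. In the pair of replicate 1, 8 of 9 genes are above 0 and the median of all genes is 1.14, while in the pair of replicate 2, 8 of 9 are below 0 and the median of all genes is −0.62.

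The 4 possible pairs across the lines show how far the members moved with their libraries. Between the replicate 1 libraries, N/D/S was higher in 9 of the 10 members, all but Cxcl12, and between the replicate 2 libraries it was lower in 9 of 10, all but Ret. These opposite counts went with the whole table: 27.0% of tested genes were lower in N/D/S in the pair of replicate 1 and 74.7% in the pair of replicate 2, with median log2 differences of 1.14 and −0.62 over all tested genes. The medians of the 9 tested members were 1.71 and −1.25. N/D/S replicate 1 was above N/D/S replicate 2 in all 10 members, against 73.2% of all tested genes. N/D replicate 2 paired with N/D/S replicate 1, the libraries with most genes detected, had the median difference nearest to 0, with 6 of 9 members higher and 3 lower in N/D/S, a member median of 0.16 and a median of 0.08 over all tested genes. In that pair Ackr3, Cxcl12, Erbb4, Nrg2 and Nrg3 differed by at most 0.21 in either direction, and Ret by 4.10, Gfra1 by 1.88, Nrg1 by 1.07 and Cxcr4 by 1.06 towards N/D/S. N/D/S replicate 2 paired with N/D replicate 1 had 5 of 9 members higher and 4 lower in N/D/S. The member median there was 0.23, beside a median of 0.51 over all tested genes.

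Of the 9 tested members, 7 had a log2 fold change above 0 and 2 below 0, with a median of 0.30, beside a median of 0.26 and 61.4% above 0 over all tested genes. With N/D replicate 1 left out, both N/D/S libraries were below N/D replicate 2 in 3 of 9 members, Ackr3, Nrg2 and Nrg3, against 31.9% of all tested genes, and above it in 1, Ret, against 13.3%. The members' counts were thus near those of the whole table.

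Cxcr4, Ackr3 and Erbb4 share chromosome 1, on which the 736 tested genes had a median log2 fold change of −0.04, against 0.28 for the genes on other chromosomes. The chromosome 1 median was the lower of the 2 in all 4 pairs across the lines, for instance −0.10 against 0.09 for N/D/S replicate 1 minus N/D replicate 2. Relative to the median of chromosome 1, the log2 fold change was −0.72 for Cxcr4, 1.21 for Ackr3 and 0.22 for Erbb4, a shift smaller than the standard error of each.

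**Figure D5:**
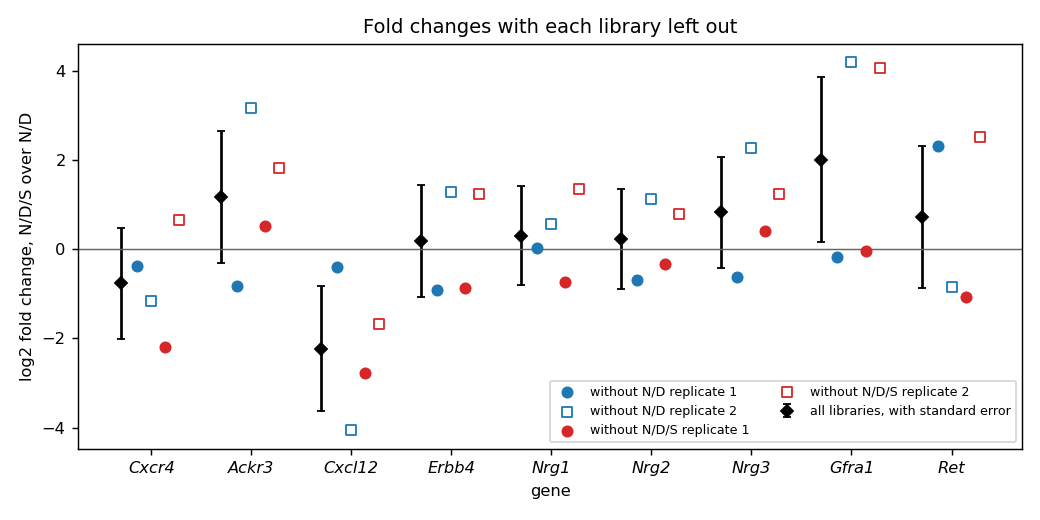
Log2 fold change (N/D/S minus N/D) for the 9 tested genes with all libraries (black diamonds, bars are the standard error) and with each library left out in turn (circles and squares, coloured by the library that was left out). For 8 of the 9 genes, all but Cxcl12, the points lie on both sides of 0.

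Other genes of the 3 systems were examined as lists of pathway members. Of 31 further chemokine genes 19 were tested, of 30 ErbB and neuregulin genes 23, and of 30 GDNF family genes 21, and 0 of these were called in either direction by limma, with 0 at an unadjusted p under 0.05 as well. Groups did not overlap for 0 chemokine genes higher and 2 lower in N/D/S, for 0 and 0 ErbB and neuregulin genes, and for 2 and 1 GDNF family genes, small counts that were not tested against the shares of 8.69% and 8.23% given above. The median log2 fold changes were 0.19, 0.52 and 0.67, beside 0.26 over all tested genes. N/D replicate 1 listed 14, 12 and 17 genes of the 3 lists at 0, against at most 6, 5 and 4 in any other library.

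The most abundant chemokine list gene was Mif, a cytokine that can also bind CXCR4, with 4071 and 2173 TPM in N/D and 2646 and 4203 TPM in N/D/S, in replicate order. Gnb2 and Gnb1, G protein beta subunits through which such receptors signal, followed with means of 535 and 468 TPM. Grk3, a kinase that desensitizes G protein-coupled receptors, was lower in both N/D/S libraries, at 1.54 and 0.607 TPM against 2.40 and 2.80 TPM. Among ErbB genes the most abundant were Nedd4, a ubiquitin ligase, Grb2, the adaptor that links receptor tyrosine kinases to Ras, and Rnf41, a ubiquitin ligase that controls ErbB receptor levels, with means of 290, 227 and 58.9 TPM. Egfr, Erbb2 and Erbb3, the other ErbB receptors, were at most 3.16 TPM in any library. In N/D/S replicate 2, Egfr and Erbb4 were level at 1.11 TPM each, and in the other libraries Erbb4 was above all of them.

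Of the GDNF family genes, Ncam1, an adhesion molecule that can serve as a GDNF co-receptor, had 111 and 190 TPM in N/D and 258 and 59.6 TPM in N/D/S. It overlapped between the lines, as did Sdc3, a heparan sulfate proteoglycan that binds GDNF, with 32.1 and 94.6 TPM against 124 and 63.0 TPM. Ptprf, a receptor tyrosine phosphatase, had a mean of 51.5 TPM. Dusp6, a phosphatase induced by and acting on ERK, was lower in both N/D/S libraries, at 16.0 and 11.3 TPM against 28.9 and 29.2 TPM, with a log2 fold change of −1.06 (standard error 0.96, limma, adjusted p = 1). Cblc, a ubiquitin ligase of the Cbl family, was higher in both N/D/S libraries, at 3.90 and 3.91 TPM against 3.06 TPM in N/D replicate 2 and a listing at 0 in N/D replicate 1. Dok5, a docking protein downstream of RET, was also higher in both, at 31.1 and 33.7 TPM against 27.5 and 19.3 TPM. Gfra2, the receptor for neurturin, had 15.4 and 9.29 TPM in N/D and 13.6 and 2.44 TPM in N/D/S, so in N/D replicate 1 it was present where Gfra1 was listed at 0.

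The genes whose levels were most like those of a receptor were found by the root mean square difference of log2(TPM + 1) over the 4 libraries. For Cxcr4 these were Trim36, Btbd11 and Hic2, with differences of 0.14 to 0.23, and for Erbb4 they were Golim4, Peg12 and Zfp30, with 0.12 to 0.18. For Ret they were Slc30a3, Rec8 and Gm21992, with 0.40 to 0.65, so no tested gene followed Ret as closely as these followed Cxcr4 and Erbb4. With 4 libraries, such likeness is a description of levels alone.

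Ordered by mean TPM over the 4 libraries, the genes were Gfra1 (24.4), Ackr3 (17.1), Ret (14.9), Nrg1 (13.8), Cxcl12 (10.0), Cxcr4 (8.60), Erbb4 (4.32), Nrg3 (3.63), Nrg2 (1.32) and Gdnf (0.293). Each neighbouring pair overlapped in its range over libraries, and the order rests on single libraries. Without N/D/S replicate 1 the means of Gfra1, Ret and Nrg1 were 7.64, 7.44 and 9.01 TPM and Ackr3 was first at 13.9 TPM, and without N/D replicate 1 the mean of Cxcl12 was 1.52 TPM. Percentiles among the tested genes, which no scaling of a library changes, are given without N/D replicate 1, where the many genes listed at 0 share a rank and lift all others. In the remaining libraries Ackr3 lay between 50.2 and 62.4, Nrg1 between 38.7 and 58.0, Cxcl12 between 7.18 and 11.4, Gfra1 between 28.7 and 79.7 and Ret between 3.81 and 65.1.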

How the data were processed

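Poly-A RNA of sorted tdTomato+ neurons was measured in 2 N/D and 2 N/D/S libraries at day 12. The authors deposited 1 table of TPM values per library, made with kallisto 0.44.0 on GRCm38 transcripts with 1 value per gene symbol (how transcripts were combined is not given in the sources used here), and the submitters' processing notes also name sleuth. Of the symbols, 24 had been turned into dates and were left out. Genes reaching 1 TPM in 2 or more libraries were kept, log2(TPM + 1) was fitted with limma 3.58.1 in R 4.3.3 over all 4 libraries with line as the only term, with Benjamini-Hochberg adjustment over all tested genes. Fold changes are on that scale, which understates changes of low genes. Within-library differences were compared by an exact permutation test with scipy 1.17.1, and figures were drawn with matplotlib 3.10.9. Sequences came from RefSeq on GRCm38.p6 and gene positions from GENCODE M21 on GRCm38.

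The members and lists were chosen with earlier results of these data known. Named genes were all 10 members, the 3 most abundant tested genes of each wider list, the largest change in each direction among genes whose groups did not overlap, the 3 genes most like Cxcr4, Erbb4 and Ret, and the induced genes. Egfr, Erbb2, Erbb3, Grk3, Dok5, Gfra2, Th, Slc18a3 and the mesenchymal and endothelial markers are named outside that rule, and were chosen after their values were seen. Some genes that the rule or the lists hold are not reported here. Alternatives were other pseudocounts, filters, scalings, a variance trend, a replicate block and leaving out each library.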

Additional observations from a re-analysis of the deposited data

How the results depend on the processing

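With all 4 libraries, no member passed an adjusted p of 0.05 in limma under any pseudocount, filter, scaling, variance trend or block tried, and the lowest adjusted p was 0.9992. With a variance trend 5 genes of the whole table were called higher and 1 lower, none of them a member. Quantile normalization moved the median over tested genes from 0.26 to −0.05, and under it Erbb4 was −0.81, Nrg2 −0.21, Ackr3 0.19 (from 1.17), Nrg3 0.22 (from 0.83) and Nrg1 0.046 (from 0.30). A pseudocount of 0.1 raised Nrg2 to 1.195, Nrg3 to 2.27, Gfra1 to 3.53 and Erbb4 to 0.29. Within libraries, it moved the change in Nrg1 over Nrg3 from −0.53 to −1.97 and in Gfra1 over Ret from 1.29 to 2.66. For Ret over Gdnf it went from 0.57 to 0.13, and every pair kept its direction. Among alternatives chosen after seeing the data, centring on the median of all tested genes gave −0.078 for Erbb4 and −0.032 for Nrg2, and centring on the median of the gene's own chromosome gave −0.045 for Nrg2. Under the same centrings, in that order, Nrg1 was 0.041 and 0.014 (from 0.30) and Ret 0.47 and 0.55 (from 0.73). The cause of the reversals of Erbb4 and Nrg2 was not tested. Requiring 1 TPM in every library left Cxcr4, Nrg1 and Ret.

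Leaving out 1 library at a time gave log2 fold changes from −2.20 to 0.67 for Cxcr4, −0.83 to 3.18 for Ackr3, −4.06 to −0.39 for Cxcl12, −0.92 to 1.29 for Erbb4, −0.74 to 1.35 for Nrg1, −0.68 to 1.14 for Nrg2, −0.62 to 2.28 for Nrg3, −0.17 to 4.19 for Gfra1 and −1.07 to 2.52 for Ret. Genes called ranged from 0 to 2213 higher and 0 to 160 lower, the most without N/D replicate 2, and in the wider lists from 0 to 2 chemokine, 0 to 4 ErbB and neuregulin and 0 to 3 GDNF family genes higher. Within libraries the change ranged from −4.33 to 0.46 for Cxcr4 over Ackr3, 0.016 to 2.91 for Cxcr4 over Cxcl12, −0.67 to 0.27 for Erbb4 over the summed neuregulins, −1.70 to 0.65 for Nrg1 over Nrg3, where it was 0.10 without N/D/S replicate 2, −2.47 to 5.05 for Gfra1 over Ret and −1.28 to 2.41 for Ret over Gdnf, where it was −0.96 without N/D/S replicate 1.

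The labels tie no culture or day to a replicate number, and deviations of same-numbered libraries correlated at 0.02 across tested genes, so the numbers were not taken as pairs, although some genes and marker lists differed by number. A replicate block cannot move a fold change in this balanced design (−0.77 for Cxcr4), and with it 0 genes were called and 9 had an unadjusted p under 0.05, against 8 without it. Depth is unknown for TPM, so how firmly a listing at 0 can be read cannot be stated.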
